A study of Mus musculus with 3 samples.

Results

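The 4 Mef2 genes (Mef2a, Mef2b, Mef2c and Mef2d) and the 4 class IIa histone deacetylase genes (Hdac4, Hdac5, Hdac7 and Hdac9) were followed in cultured mouse myoblasts. They were taken by name as 8 of the 35562 genes to which the listed transcripts could be assigned. RNA-seq libraries of 3 myoblast lines, numbered 66, 67 and 72, were available, and they form a single condition with 1 library per line. Every line has the genotype Dmdmdx; Pax7-nGFP, so that it carries the mdx mutation of dystrophin and a nuclear GFP reporter under Pax7 control. Every line was also edited by CRISPR/Cas9, which restored the reading frame of dystrophin by skipping the mutated exon rather than reverting the mutation. The lines were grown from satellite cells purified by FACS out of mouse-mouse chimeras, which had been made by injecting edited iPSCs into blastocysts. In hosts used by the study for such chimeras, a tamoxifen-inducible Cre driven by Pax7 was able to switch on diphtheria toxin A and thereby remove host satellite cells. The donor iPSCs came from reprogrammed fibroblasts of male embryos, and editing of dystrophin had been checked at the DNA level in 1 iPSC clone. The paper also reports only the edited dystrophin allele in every chimera-derived myoblast line it examined, and dystrophin protein in myotubes grown from edited myoblasts. Whether lines 66, 67 and 72 were among those examined is not given in the labels. Neither the host, the chimera nor the tamoxifen treatment behind each line is given in the labels, so p-values over lines cover only the spread between these samples, which may be technical. Age is not given in the labels, and unedited myoblasts and fibroblasts were not analysed here.

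MEF2 proteins are transcription factors of the MADS-box class that bind A/T-rich sites in muscle gene promoters and act together with the MyoD family during differentiation. Class IIa histone deacetylases bind MEF2 proteins on DNA and hold their targets silent. Phosphorylation by CaM kinases, protein kinase D or salt-inducible kinases creates docking sites for 14-3-3 proteins, which carry the deacetylases out of the nucleus and so free MEF2. The MEF2 RNAs are also alternatively spliced. A pair of mutually exclusive exons, α1 and α2, codes for the stretch that follows the MADS and MEF2 domains, and a short cassette named β codes for a small acidic piece of the activation domain. In Mef2d the α1 exon carries sites phosphorylated by protein kinase A, whereas the α2 form is known from differentiating muscle. Exon β is known to be included mostly in muscle and brain.

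The exon pair and the β cassette are shown because the transcript split of the Mef2 genes, given further on, turns on them. They were read from GENCODE release M21 transcripts on GRCm38, run 5′ to 3′ on the strand of the gene, and, for α1 and β, carry capitals at the bases that Mef2a, Mef2c and Mef2d share in an alignment. Exon α1, the first of the pair in the direction of transcription, lies at chr7:67268269-67268400 on the minus strand in Mef2a, at chr13:83625265-83625408 on the plus strand in Mef2c and at chr3:88158034-88158171 on the plus strand in Mef2d. All of the exons printed are coding exons.
Mef2a α1: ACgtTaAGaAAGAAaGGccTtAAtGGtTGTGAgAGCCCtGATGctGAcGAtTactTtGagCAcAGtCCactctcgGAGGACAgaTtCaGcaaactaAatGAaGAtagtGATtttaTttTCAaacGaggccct
Mef2c α1: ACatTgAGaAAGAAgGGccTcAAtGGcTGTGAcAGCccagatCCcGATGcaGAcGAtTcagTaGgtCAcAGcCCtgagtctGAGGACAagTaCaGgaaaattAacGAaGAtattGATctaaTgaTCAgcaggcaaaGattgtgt
Mef2d α1: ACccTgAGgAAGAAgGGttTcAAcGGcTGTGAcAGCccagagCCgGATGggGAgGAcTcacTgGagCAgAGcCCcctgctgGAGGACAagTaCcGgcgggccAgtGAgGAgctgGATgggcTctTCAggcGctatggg

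Exon α2 lies at chr13:83625470-83625607 in Mef2c and chr3:88158221-88158355 in Mef2d, both on the plus strand. Here capitals mark the 90 bases that Mef2c and Mef2d share.
Mef2c α2: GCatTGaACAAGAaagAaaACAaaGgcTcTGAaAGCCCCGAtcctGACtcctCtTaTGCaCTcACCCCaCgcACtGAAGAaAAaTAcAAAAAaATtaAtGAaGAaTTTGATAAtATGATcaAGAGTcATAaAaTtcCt
Mef2d α2: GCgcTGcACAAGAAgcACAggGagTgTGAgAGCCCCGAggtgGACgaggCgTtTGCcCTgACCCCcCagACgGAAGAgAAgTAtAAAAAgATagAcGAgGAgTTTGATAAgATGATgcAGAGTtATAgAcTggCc

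Between Mef2c and Mef2d, 65.9% of α2 and 63.9% of α1 were identical. For α1, identity was 66.0% between Mef2a and Mef2c and 55.1% between Mef2a and Mef2d. Within a gene, α1 and α2 were 63.9% identical in Mef2c and 54.2% in Mef2d, so that the exons of a pair differed at a large part of their bases. The β cassette lies at chr7:67244521-67244544 in Mef2a (24 bases), chr13:83654598-83654621 in Mef2c (24 bases) and chr3:88161781-88161801 in Mef2d (21 bases), with 10 bases shared by all 3 genes.
Mef2a β: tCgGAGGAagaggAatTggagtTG
Mef2c β: tCtGAGGAtgtggAtcTgctgtTG
Mef2d β: aCtGAGGAccAttTagatcTG

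Libraries held between 66972426 and 73274315 estimated counts, that is, reads divided among the transcripts they fit. Levels below are in TPM (a count corrected for transcript length and scaled to a fixed library sum), summed over the transcripts of a gene, and are given with the SD over n = 3 lines. The labelled cell type was checked on markers. The paper describes the sequenced myoblasts as purified by FACS, so the markers describe cells that had already been selected. All 6 myoblast markers were above 10 TPM, with Pax7 at 144 ± 9.02 TPM, Myf5 at 109 ± 10.9 TPM and Myod1 at 690 ± 107 TPM. Other cell types that express Mef2c or class IIa Hdac genes were nearly absent. The 6 endothelial markers summed to between 0.742 and 1.82 TPM, with Emcn and Erg at or under 3 counts in each line. The 6 immune markers summed to between 0.213 and 0.322 TPM, with Adgre1 at 0 and Cd3e at or under 3 counts. Fibroblast and neuronal genes were also low, apart from 1 tubulin gene. The 6 fibroblast markers summed to between 0.526 and 0.822 TPM, with Lum and Dpt at 0 and Dpp4 at or under 3 counts. Neuronal markers summed to between 37.3 and 48.1 TPM, nearly all of it Tubb3, a tubulin also found outside neurons, while Rbfox3 and Gad1 were at or under 3 counts.

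Mef2a was the highest of the 8 genes (chr7:67231163-67372858, minus strand). It had 159.9 TPM in line 66, 168.6 TPM in line 67 and 169.1 TPM in line 72, a mean of 166 ± 5.14 TPM. The 3 lines lay within 1.06-fold of each other, and Mef2a stood above 96.4% of the 25510 detected genes. Mef2d (chr3:88142372-88172086, plus strand) came next with 56.3, 75.5 and 64.6 TPM in lines 66, 67 and 72 (65.5 ± 9.62 TPM). Line 66 was the lowest and line 67 the highest, 1.34-fold apart.

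Mef2c (chr13:83504034-83667080, plus strand), the family member that controls sarcomere genes in differentiating muscle, had 19.9 TPM in line 66, 39.9 TPM in line 67 and 48.8 TPM in line 72 (36.2 ± 14.8 TPM). Line 66 stood well under the other lines. With complete coding sequences alone Mef2c came to 22.0 TPM, so that its level depends on incomplete transcripts. Mef2b (chr8:70139711-70167488, plus strand), known from germinal-centre B cells, had 3, 2 and 2 counts in lines 66, 67 and 72. This does not exceed the 3 counts that a count of 0 allows at this depth, so Mef2b was not detectable.

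Among the deacetylases, Hdac5 (chr11:102194432-102230166, minus strand) led with 41.1, 39.2 and 38.6 TPM in lines 66, 67 and 72 (39.6 ± 1.30 TPM). These levels were within 1.06-fold of each other. Hdac7 (chr15:97792664-97844502, minus strand), best known from endothelium and thymocytes, had 16.4, 17.3 and 19.7 TPM (17.8 ± 1.68 TPM). Hdac4 (chr1:91928779-92195699, minus strand), which in muscle responds to denervation, had 7.53, 7.35 and 8.05 TPM (7.64 ± 0.364 TPM). Hdac9 (chr12:34047580-34917095, minus strand) had 1.77, 2.09 and 2.08 TPM (1.98 ± 0.184 TPM). With complete coding sequences alone, Hdac5 came to 24.3 TPM and Hdac4 to 4.55 TPM, so that these levels depend on noncoding and incomplete transcripts. Summed over all transcripts, each of these deacetylases varied by at most 1.2-fold between lines. With complete coding sequences alone, Hdac4 was 1.13-fold, Hdac5 1.23-fold, Hdac7 1.34-fold and Hdac9 1.38-fold apart. At least 91.7% of the 31-base words of each member occur in no other listed gene, the lowest share being that of Mef2d.

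**Figure D1:**
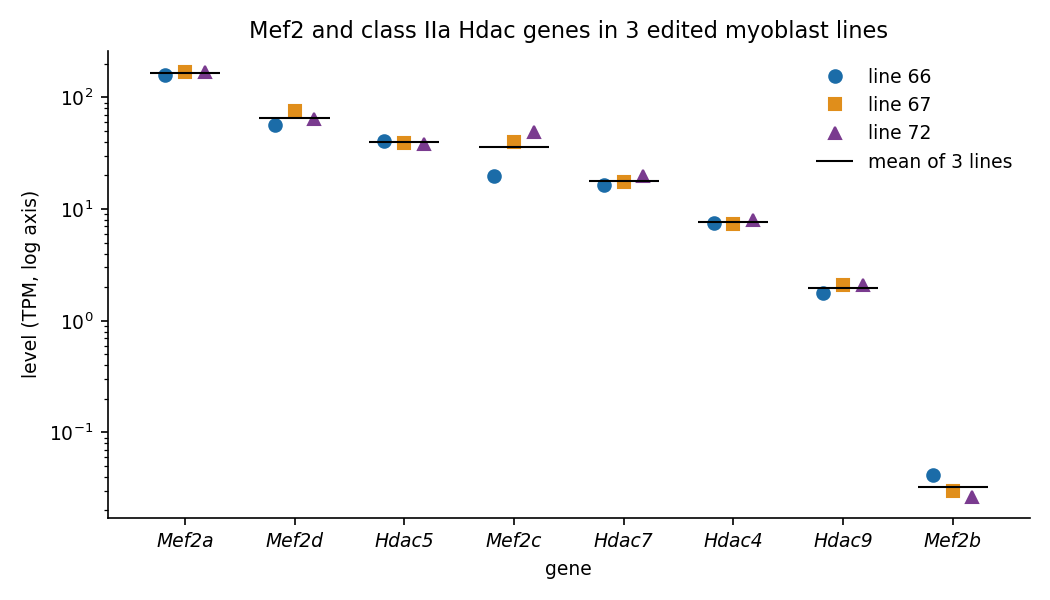
TPM (log axis) of the 8 genes in the 3 lines, as 1 point per line, with a bar at the mean. The points of Mef2c spread from 19.9 to 48.8 TPM, whereas those of Mef2a, Hdac4 and Hdac5 lie nearly on top of each other, and Mef2b lies at 2 or 3 counts in each line.

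The order Mef2a, Mef2d, Hdac5, Mef2c, Hdac7, Hdac4, Hdac9, Mef2b was followed in every line, except that Mef2c stood above Hdac5 in lines 67 and 72. Differences of log2(TPM + 1) between neighbours in this order were compared with an exact two-sided sign-flip test over lines, which cannot fall below p = 0.25 with 3 lines. Mef2a exceeded Mef2d by 1.34 ± 0.17 and Mef2d exceeded Hdac5 by 0.70 ± 0.24 on this scale. Mef2c exceeded Hdac7 by 0.89 ± 0.55, Hdac7 exceeded Hdac4 by 1.12 ± 0.08, Hdac4 exceeded Hdac9 by 1.54 ± 0.10 and Hdac9 exceeded Mef2b by 1.53 ± 0.10. The last of these values is set by the pseudocount, since Mef2b was at or under 3 counts in every line, and it was 3.97 with a pseudocount of 0.1. In these 6 pairs all 3 lines pointed the same way and the ranges of the genes did not overlap, with the smallest p that the exact test allows (0.25, adjusted 0.29). For Mef2c over Hdac7 this held in TPM but not without the length correction, where line 66 had 2697 counts of Mef2c and 3549 of Hdac7 and the difference in CPM was 0.19 (exact p = 0.5). Hdac5 and Mef2c did not differ beyond their spread: Hdac5 minus Mef2c came to 1.01 for line 66, -0.03 for line 67 and -0.33 for line 72 (exact p = 1), and its mean turned from 0.22 to -0.18 without line 66.

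The 4 Mef2 genes summed to 236, 284 and 282 TPM in lines 66, 67 and 72 (268 ± 27.2 TPM), and the 4 class IIa Hdac genes to 66.8, 65.9 and 68.4 TPM (67.0 ± 1.25 TPM). Mef2 RNA was thus above the deacetylase RNA in 3 of 3 lines, with a log2 ratio of 1.82, 2.11 and 2.05 and a mean of 1.99 ± 0.15, or 3.98-fold (exact sign-flip test, p = 0.25, the smallest possible). The ratio was higher, at 2.47, when only protein-coding transcripts were summed, and 2.46 with complete coding sequences. Mef2a made up 62.3 ± 4.69% of the Mef2 sum, Mef2d 24.4 ± 1.93% and Mef2c 13.2 ± 4.48%. The Mef2c part came to 8.42%, 14.04% and 17.3% for lines 66, 67 and 72. Hdac5 made up 59.1 ± 2.55% of the deacetylase sum, Hdac7 26.6 ± 2.11%, Hdac4 11.4 ± 0.33% and Hdac9 2.95 ± 0.27%.

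Of the 5 members averaging at least 10 TPM, 1 was over 1.5-fold apart between its highest and lowest line, against 9.79% of the 8428 genes at that level. The 3 members under that level were Hdac4, Hdac9 and Mef2b. The gene over the threshold was Mef2c, which was 2.45-fold apart and thus also among the 2.47% of genes that were over 2-fold apart. Its range exceeded that of 98.7% of these genes. Mef2a and Hdac5 varied less than most, with a coefficient of variation of 3.10% and 3.29% against a median of 8.74%. For Hdac5 this is TPM over all transcripts, and its complete coding sequences alone were 1.23-fold apart. Among the 7 members above 1 TPM the count stayed 1 gene at either threshold, against 19.7% and 7.19% of genes at that level. Without any filter Mef2b joined Mef2c at 1.5-fold, on 3 and 2 counts, against 52.8% of genes, but not at 2-fold, against 38.7%. Without line 66, no member averaging at least 10 TPM was over 1.5-fold apart. There is 1 library per line and no test of this difference.

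Mef2c in line 66 had a log2 ratio of -1.16 to the average of lines 67 and 72. Counts behind it were 2697 in line 66, 4549 in line 67 and 5919 in line 72, and counts scaled to library totals were 2.29-fold apart. The median log2 ratio in line 66 was -0.08 over the 308 genes of chromosome 13 averaging at least 10 TPM. A median does not describe single parts of a chromosome, and the source of the Mef2c difference was not tested. The picture was different for Hdac5. In line 66 the median log2 ratio of the 699 genes of chromosome 11 to the other lines was 0.33, whereas Hdac5 itself had a ratio of 0.08, so that it stood 0.25 below the median of its chromosome. In lines 67 and 72 the chromosome 11 median was -0.20 and -0.14, and Hdac5 had ratios of -0.02 and -0.06.

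**Figure D2:**
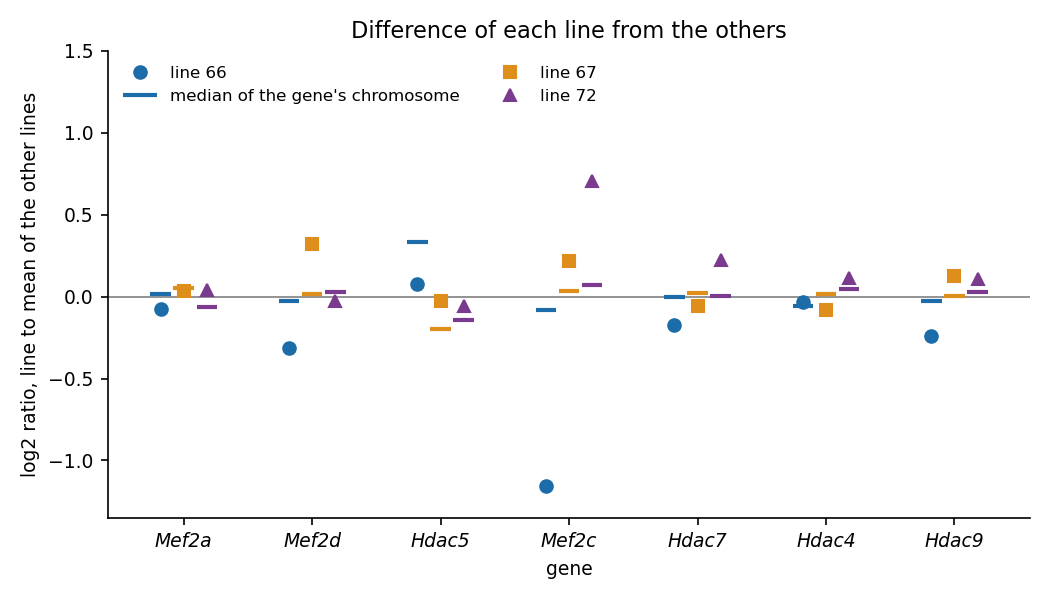
Log2 ratio of each line to the average of its 2 companions for the 7 members above 1 TPM (points). Short bars give the median ratio, in that line, of genes of the same chromosome averaging at least 10 TPM. Mef2c in line 66 lies at -1.16, far from the median of its chromosome. In TPM summed over all transcripts, Hdac5 stays near 0, while its chromosome lies at 0.33 in line 66.

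Markers of differentiating muscle moved with Mef2c. Of 8 such markers, 7 averaged at least 10 TPM and all 7 were over 1.5-fold apart, against 9.79% of all genes at that level. The 8 summed to 1668 TPM in line 66, 2319 TPM in line 67 and 2790 TPM in line 72. Of 6 myoblast markers none was over 1.5-fold apart, against the same 9.79%. They did not share 1 order of lines, since Myod1 had 791, 702 and 579 TPM in lines 66, 67 and 72, whereas Pax7 had 136, 143 and 154 TPM. The part of differentiating cells in the Mef2c difference was not tested, and in bulk RNA fewer cells of a type and less RNA per cell cannot be told apart.

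Genes that MEF2 proteins are known to switch on in muscle were read in the same way. Of 12 such genes, 9 averaged at least 10 TPM, and 6 of these 9 were over 1.5-fold apart, against the 9.79% of all genes at that level. Myog, the myogenic factor of early differentiation, had 168 TPM in line 66, 222 TPM in line 67 and 310 TPM in line 72. Smyd1, a methyltransferase needed for sarcomere assembly, had 38.3, 72.2 and 96.1 TPM in the same lines. Both were lowest in line 66, as Mef2c was. Hrc, a calcium-binding protein of the sarcoplasmic reticulum, had 9.95, 18.8 and 23.9 TPM. Lmod3, which builds thin filaments, had 17.3, 25.2 and 30.4 TPM. Xirp1, an actin-binding protein, had 8.21, 12.1 and 13.6 TPM, and Srpk3, a muscle kinase, had 8.90, 11.8 and 14.4 TPM. Des, the muscle intermediate filament protein, and the immediate early gene Jun were also on the list and stayed within 1.06-fold (494 ± 15.0 TPM) and 1.15-fold (101 ± 7.67 TPM). Nr4a1, an orphan nuclear receptor named after its values were seen, ran the other way with 5.84, 5.20 and 3.58 TPM.

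The lowest value lay in line 66 and the highest in line 72 for 9 of these 12 genes, against 27% of the 12528 genes averaging at least 1 TPM. The exceptions were Des, Nr4a1 and Ppargc1a. This order was looked at after the levels of Mef2c had been seen. Myog and Ckm stand in the lists of both MEF2 targets and differentiating muscle, so the lists are not separate evidence. Among the members, 3 of the 7 above 1 TPM had this order (Mef2a, Mef2c and Hdac7), and of these Mef2a was only 1.06-fold apart.

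**Figure D3:**
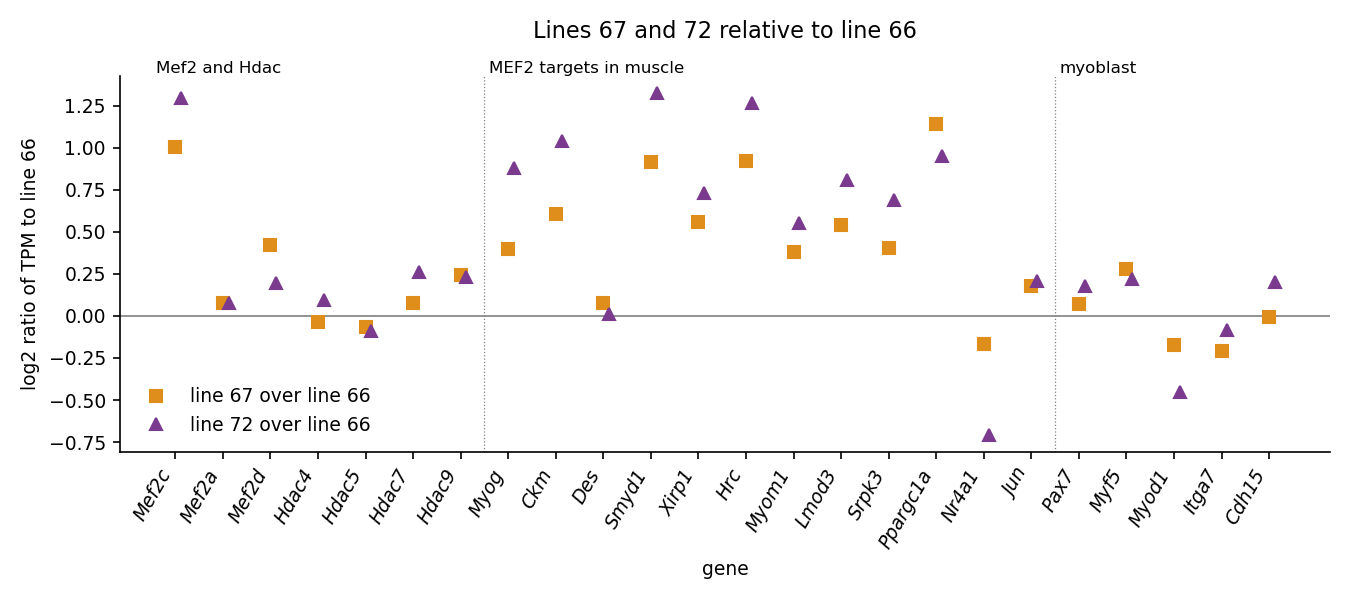
Log2 ratio of TPM in lines 67 and 72 to line 66 for the 7 members above 1 TPM, the 12 MEF2 targets and 5 myoblast markers. Mef2c lies at 2.01-fold and 2.45-fold in lines 67 and 72, above Smyd1 and Hrc in line 67 and between them in line 72, whereas Mef2a, Hdac4 and Hdac5 lie near 0.

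Splitting the Mef2 genes by transcript, most Mef2a RNA was assigned to transcripts with α1. Transcripts with α1 held 79.2%, 79.3% and 79.2% of Mef2a TPM in lines 66, 67 and 72, and transcripts with α2 held 19.5%, 19.5% and 20.0%. Per line, α2 minus α1 was thus -59.7, -59.8 and -59.2 points (mean -59.6 ± 0.32, exact sign-flip test p = 0.25, the smallest possible). Mef2d was alike, with 69.3 ± 3.72% α1 and 11.7 ± 0.48% α2, a difference of -57.5 ± 3.36 points (exact p = 0.25). By estimated counts the α2 share was lower in both genes, at 10.7% in Mef2a and 6.33% in Mef2d, and α2 minus α1 was -78.0 and -85.0 points. The remaining 19.0 ± 4.10% of Mef2d TPM lay in transcripts with neither exon, chiefly Mef2d-205, a noncoding transcript of 502 bases. Among Mef2d transcripts with a complete coding sequence, α1 held 85.5 ± 0.43% and α2 14.5 ± 0.43%.

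Mef2c had the highest α2 share of the 3 genes in both units, but whether α2 exceeded α1 depended on the unit. Transcripts with α2 held 42.3 ± 2.47% of Mef2c TPM and those with α1 54.4 ± 1.41%. In contrast, transcripts with α2 held 66.5 ± 1.92% of Mef2c estimated counts and those with α1 32.6 ± 1.77%, so that α2 exceeded α1 by 33.9 points. In TPM, the difference had the opposite sign and was -12.1 ± 3.55 points, with -8.03 in line 66, -14.1 in line 67 and -14.3 in line 72 (exact p = 0.25). Much of the α1 TPM lay in short transcripts with an incomplete coding sequence, to which few reads give a high TPM. Mef2c-231, of 702 bases, held 18.9% of TPM and 2.81% of counts. Mef2c-216 and Mef2c-207 held 10.6% and 5.51% of TPM, and each was at 0 in at least 1 line. With complete coding sequences alone, a restriction chosen after these transcripts had been seen, α2 held 68.8%, 69.1% and 67.5% of Mef2c TPM in lines 66, 67 and 72. In this restriction the α2 TPM was 8.86, 16.0 and 20.3, and the α1 TPM was 4.02, 7.16 and 9.76, so that both forms were lowest in line 66 and highest in line 72. Mef2c itself was 2.33-fold apart between lines when only complete coding sequences were summed (12.9, 23.2 and 30.04 TPM).

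Transcripts with exon β held most of the RNA assigned to Mef2a and a small part of that assigned to Mef2c and Mef2d. These shares rest on whole transcripts and not on reads of the exon itself. In Mef2d, β is held by 1 listed transcript, of 1791 bases, whereas the leading transcript without it has 5401 bases. In Mef2a, the leading transcript with β is the longest listed, at 5538 bases. Transcripts with β held 59.0%, 62.8% and 67.4% of Mef2a TPM in lines 66, 67 and 72 (63.1 ± 4.18%). The same share was 10.4%, 12.7% and 12.2% in Mef2c (11.8 ± 1.25%) and 11.9%, 14.5% and 18.2% in Mef2d (14.9 ± 3.14%). With complete coding sequences alone it was 19.3% in Mef2c and 18.3% in Mef2d. In each of the 3 genes line 66 had the lowest share, which is also the line with the lowest differentiation markers. The same held in estimated counts. The TPM ranges of Mef2c and Mef2d overlapped and stood below that of Mef2a, whereas in counts Mef2c (21.7 ± 2.99%) stood above Mef2d (8.27 ± 1.91%) in each line.

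Among complete coding sequences, the combination of α1 with β led in Mef2a, with 94.4, 106 and 114 TPM in lines 66, 67 and 72. Mef2a with α1 and without β ran the other way, with 32.1, 27.3 and 19.0 TPM, while Mef2a with α2 and without β stayed at 31.1, 32.8 and 33.9 TPM. The leading combination differed between genes. Mef2d was led by α1 without β, at 33.1, 38.2 and 34.8 TPM, and its α1 with β had 6.71, 11.0 and 11.7 TPM. Mef2c was led by α2 without β (8.86, 16.0 and 20.3 TPM), followed by α1 with β (2.06, 5.08 and 5.97 TPM) and α1 without β (1.95, 2.08 and 3.78 TPM). The annotation lists 0 complete Mef2a or Mef2d transcripts that join α2 with β, and 1 of Mef2c, which was at 0 in every line. Reads from such RNAs, if present, could only be assigned to the listed combinations.

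**Figure D4:**
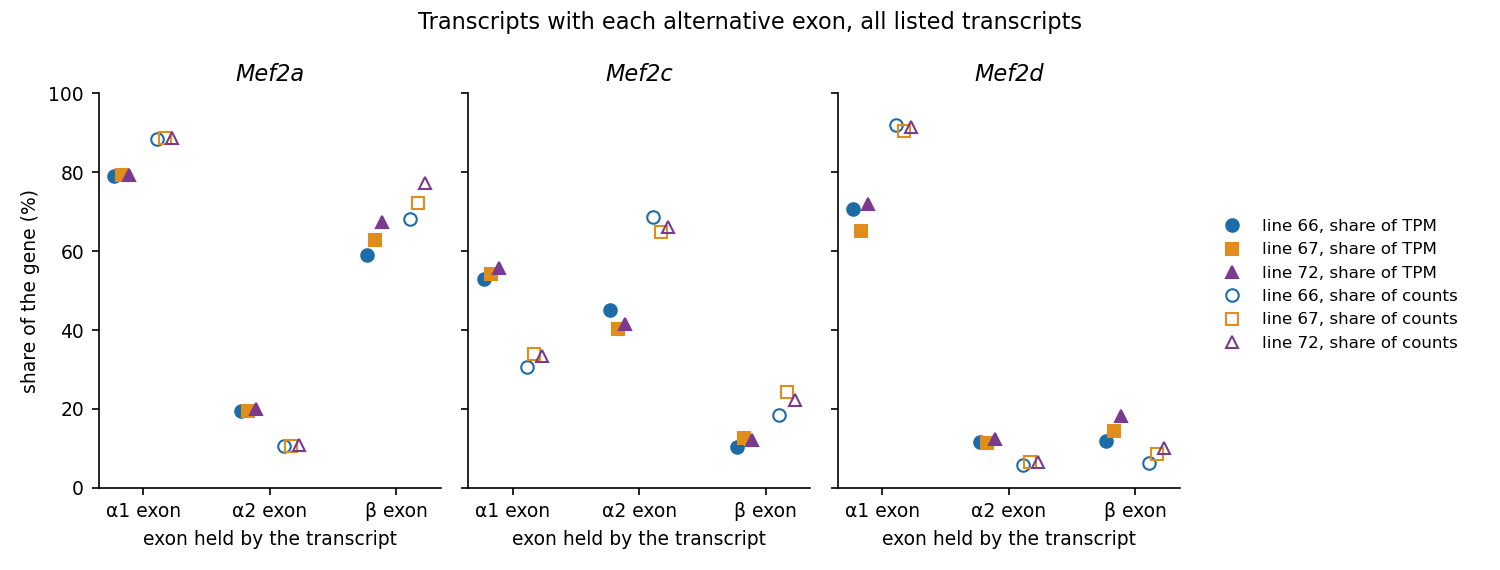
Share of each gene in transcripts that hold exon α1, α2 or β, by line (symbol) and unit (filled symbols for TPM, open symbols for estimated counts), over all listed transcripts. Mef2a and Mef2d lie high at α1 in both units, whereas in Mef2c the order of α1 and α2 turns with the unit, and β lies high in Mef2a alone.

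Mef2a, Mef2c and Mef2d were each led by 1 transcript. Mef2a-208, of 498 codons with α1 and β, held 63.1 ± 4.18% of TPM and 72.6 ± 4.54% of counts. Mef2d-201, of 507 codons with α1 and without β, held 30.9 ± 2.79% of TPM and 55.7 ± 2.75% of counts. Mef2c-201, of 464 codons with α2 and without β, held 28.4 ± 1.58% of TPM and 54.0 ± 1.75% of counts. The assignment rests on unequal evidence. Of the 31-base words of a transcript, 41.0% were found in no other transcript of the gene for Mef2d-201 and 13.7% for Mef2a-208, but 0% for Mef2c-201, each of whose words occurs in at least 1 other Mef2c transcript. No words of their own were left either for Mef2a-203 and Mef2a-204, the α2 form and the α1 form without β.

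RefSeq lists 3 start sites for Mef2c, and complete transcripts were grouped by the site within 2000 bases of their first base. Transcripts of the first start (position 83504034 of chromosome 13) had 10.8, 18.1 and 24.0 TPM in lines 66, 67 and 72, or 80.7 ± 3.02% of the Mef2c TPM in complete coding sequences. Transcripts of the last start (83573607) had 2.01, 4.89 and 5.74 TPM, or 18.6 ± 2.77%. The middle start (83523656) held 0.70 ± 0.31%. Over all Mef2c transcripts, incomplete ones included, the shares differed: the first start held 50.3% of TPM, the middle start 26.1%, with 38.2% in line 67, and the last start 11.5%, and 12.1% had no RefSeq start within the window. In estimated counts over all transcripts, the first start held 73.0%, the middle start 4.29% and the last start 21.1%, and 1.57% had no such start. In complete coding sequences, line 72 exceeded line 66 by 2.22-fold at the first start and by 2.85-fold at the last, so that line 66 was lowest at both. All of this TPM at the last start lay in Mef2c-212, which joins α1 with β. The split by start thus uses the same assigned transcripts as the split by exon and is not separate evidence. The 250 bases before the first and the last start are shown because nearly all complete Mef2c RNA was assigned to them. Sequences are RefSeq promoters on GRCm38.p6, and capitals mark matches to the E-box CANNTG, the site class of MyoD family proteins, and to TATAAA on either strand.
Mef2c first start, chr13:83503784-83504033, plus strand: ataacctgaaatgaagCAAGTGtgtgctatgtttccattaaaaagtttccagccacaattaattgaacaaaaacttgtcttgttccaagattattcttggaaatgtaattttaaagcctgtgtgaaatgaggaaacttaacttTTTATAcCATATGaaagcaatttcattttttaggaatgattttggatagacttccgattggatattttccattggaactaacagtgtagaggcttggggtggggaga
Mef2c last start, chr13:83573357-83573606, plus strand: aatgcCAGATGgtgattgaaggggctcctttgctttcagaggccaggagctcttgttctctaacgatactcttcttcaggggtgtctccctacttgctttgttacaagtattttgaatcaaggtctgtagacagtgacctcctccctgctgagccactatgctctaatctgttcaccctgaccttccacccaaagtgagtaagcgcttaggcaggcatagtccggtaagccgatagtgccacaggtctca

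The window of the first start held 2 E-box matches and 1 match to TATAAA, with 33.6% GC. That of the last start held 1 E-box match and no TATAAA, with 49.6% GC. An E-box match was found in 66.2% and TATAAA in 12.4% of 32851 promoter windows of this length, so that a match to CANNTG is common. No window of Mef2c held a match to the MEF2 consensus or to the CArG box, the site class of serum response factor, which were present in 2.92% and 1.47% of all windows. Hdac5 was the 1 member with a match to the MEF2 consensus, close to its start, and its window is shown with this match and 1 E-box in capitals. The matches printed do not overlap. A match describes these letters and does not show binding.
Hdac5, chr11:102230173-102230422, minus strand: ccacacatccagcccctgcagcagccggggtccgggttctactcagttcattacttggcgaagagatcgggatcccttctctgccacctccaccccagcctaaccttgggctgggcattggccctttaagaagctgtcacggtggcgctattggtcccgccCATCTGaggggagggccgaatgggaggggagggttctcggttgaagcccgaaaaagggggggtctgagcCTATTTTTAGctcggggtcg

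Among the deacetylases, Hdac9 was divided between a short and a long form. The short form has the length of the protein known as MITR, which binds MEF2 but ends before the catalytic domain. Its 3 listed transcripts code for 544 to 588 codons, and they held 1.09, 1.70 and 1.62 TPM in lines 66, 67 and 72, or 61.7%, 81.0% and 78.1% of Hdac9. The 4 transcripts of the long form, with 936 to 1067 codons, held 0.298, 0.217 and 0.261 TPM, or 16.9%, 10.4% and 12.6%. In estimated counts the short form held 61.7 ± 9.23% and the long form 28.4 ± 7.65%. The short form exceeded the long form in every line in both units. Hdac9-201, a short form of 588 codons, held the largest part (43.0 ± 7.95% of TPM), and 59.4% of its 31-base words occur in no other Hdac9 transcript.

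Hdac5 RNA was not all coding. Protein-coding transcripts held 63.9 ± 4.14% of Hdac5 TPM, and transcripts with a retained intron held 28.1%, 30.8% and 33.1% in lines 66, 67 and 72. The highest of the latter, a transcript of 650 bases, held 15.7% of TPM but 3.23% of counts. Hdac5-204, of 1115 codons, held 44.5 ± 4.80% of TPM and 59.9 ± 4.32% of counts. Hdac7 had 71.3 ± 6.46% in protein-coding transcripts and 17.5 ± 5.29% in 1 transcript annotated for nonsense-mediated decay, and its coding part was spread over forms of which the highest, Hdac7-208 with 851 codons, held 17.4 ± 5.03%. Hdac4 had 72.6 ± 8.72% in protein-coding transcripts, and the leading transcript, of 1076 codons, held 47.5 ± 3.28% of TPM and 78.1 ± 1.21% of counts.

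The genes that act on class IIa deacetylases were mostly present. Of 14 genes for kinases of these deacetylases, 8 averaged at least 10 TPM, led by Camk2g (118 ± 9.65 TPM), Camk2d (108 ± 27.0 TPM) and Sik1 (41.9 ± 5.27 TPM). The median of the list was 17.9 TPM, against 0.861 TPM over all detected genes. Camk2d, a CaM kinase that binds Hdac4, was the 1 gene of these 8 over 1.5-fold apart, a share near the 9.79% of all genes at that level. It had 89.8 TPM in line 66, 95.9 TPM in line 67 and 139 TPM in line 72. It was highest in line 72, as Mef2c was, but did not set line 66 apart. Of 8 genes for 14-3-3 proteins and nuclear export, 7 averaged at least 10 TPM and none of these was over 1.5-fold apart, against the same 9.79%. They were led by Ywhae (1840 ± 109 TPM), Ywhaz (605 ± 23.5 TPM) and Ywhaq (316 ± 17.2 TPM), each above the summed level of the 4 deacetylases.

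Of 9 genes of the p38, ERK5 and calcineurin pathways upstream of MEF2, 7 averaged at least 10 TPM and none of these was over 1.5-fold apart, against 9.79% of all genes at that level. Map2k3, the kinase upstream of p38, had 150 ± 17.9 TPM, and the calcineurin subunits Ppp3r1 and Ppp3cb had 96.5 ± 9.82 and 90.5 ± 3.14 TPM. The list also holds Rcan1, a regulator that can inhibit calcineurin, named after its values were seen (11.6 ± 0.762 TPM). All 8 coregulators of MEF2 were above 10 TPM, with none over 1.5-fold apart, against the same 9.79%. Ncor1, a corepressor that links class IIa deacetylases to Hdac3, was the highest of them at 139 ± 8.07 TPM, and Hdac3 itself had 85.4 ± 3.96 TPM.

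**Figure D5:**
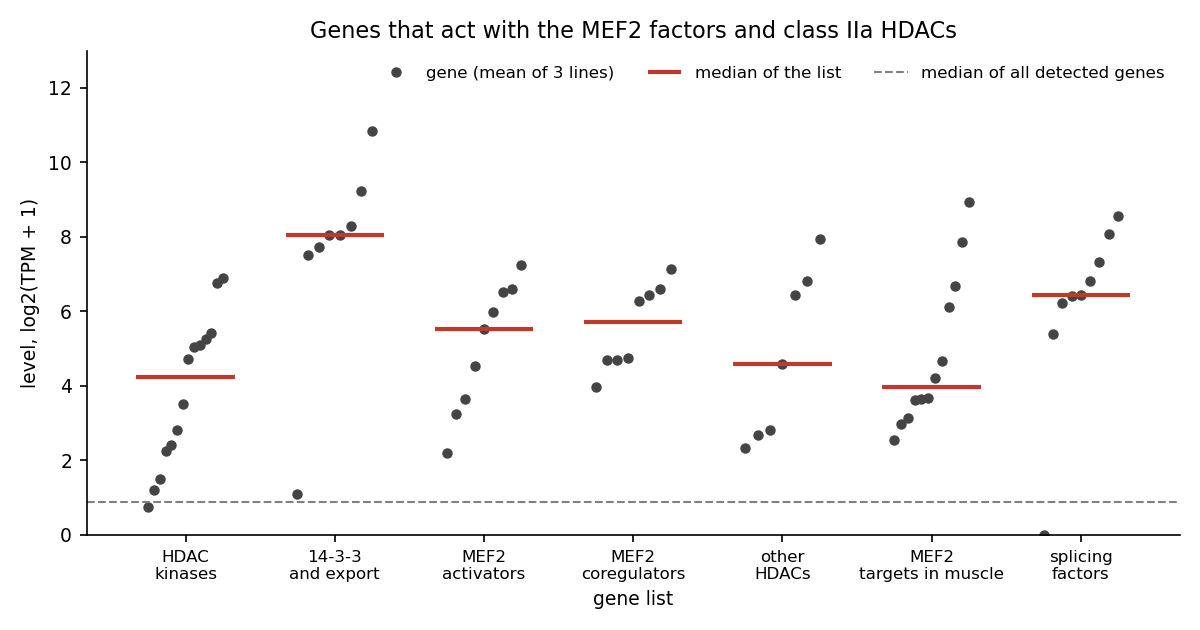
Mean level over the 3 lines, as log2(TPM + 1), of each gene in 7 lists (points), with the median of each list (thick bar) and of all detected genes (dashed line, 0.861 TPM). The list of 14-3-3 and export genes lies highest, and the median of every list lies above that of all detected genes.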

How the data were processed

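RNA of 3 edited myoblast lines was sequenced as stranded, poly-A-enriched libraries. Per the submitters' processing notes, bcl2fastq 2.20, fastp 0.20 and kallisto 0.46.1 were used with build GRCm39. The annotation release and strand setting are not given in the sources used here. The authors deposited an estimated count per transcript, with each read divided among the transcripts it fits, and TPM, for which these counts were divided by effective length and scaled to a library sum of 1000000. Transcripts were matched by identifier to GENCODE M21 (GRCm38), the source of symbols and coordinates. The 1112 of 121798 transcripts without a match (between 0.493% and 0.535% of counts) were left out, and values were summed per gene. Totals of estimated counts were 73274315, 66972426 and 70272367 in lines 66, 67 and 72. The limit for a count of 0 was set at 3, which comes to 0.0409, 0.0448 and 0.0427 CPM for the respective lines and covers counting error only.

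Levels were compared with exact two-sided sign-flip tests over lines (Benjamini-Hochberg over the 7 neighbouring pairs, and over the 3 genes for exon shares), on log2(TPM + 1) for neighbours. Lines were compared by fold among genes averaging at least 10 TPM, without a test. Exons α1 and α2 (100 to 160 bases) and β (18 to 30 bases) were found in the annotation and aligned with MAFFT 7.526. A transcript held an exon if it covered at least 50% of it. The members and lists were chosen with earlier results of these data known. Named were all members, the 3 highest genes of each list, those at or under 3 counts in every line and those over 1.5-fold apart; Pax7, Myf5, Myod1 and Tubb3 were named as marker checks. A few items that these rules would name are not reported here. Alternatives were CPM, scaling by edgeR 4.0.16 (TMM) or DESeq2 1.42.0, other pseudocounts, filters and thresholds, coding transcripts alone, transcripts of equal length and leaving out each line. The scripts were tested on simulated data. Python 3.11.15, pandas 2.3.3, scipy 1.17.1 and R 4.3.3 were used.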

Additional observations from a re-analysis of the deposited data

How the results depend on the processing

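Of 142 values recomputed under an alternative, 117 were counted as the same, though some of them changed in size, 22 moved further and 3 changed sign. Only the differences and ratios among these values have a direction to keep. CPM, which has no length correction, gave Mef2a 448, Mef2d 157, Hdac5 86.7, Mef2c 63.0, Hdac7 52.3, Hdac4 27.0 and Hdac9 4.30, the same order of means. Complete coding sequences alone, chosen after seeing the data, which drops noncoding and incomplete transcripts, gave 52.9 TPM for Mef2d, 24.3 for Hdac5, 22.0 for Mef2c, 12.6 for Hdac7, 4.55 for Hdac4 and 1.73 for Hdac9. TMM and DESeq2 size factors moved no level beyond the spread of the lines. Keeping only transcripts of equal length in both sources left the members as they were, so it tested nothing for them. A pseudocount of 0.1 gave 1.21 for Hdac7 minus Hdac4, 1.90 for Hdac4 minus Hdac9 and 3.97 for Hdac9 minus Mef2b, which was 2.36 in CPM. The α2 minus α1 difference of Mef2c changed sign to 33.9 points in estimated counts and to 36.9 points with complete coding sequences. The share of β was 72.6% in Mef2a, 21.7% in Mef2c and 8.27% in Mef2d by counts, and 19.3% in Mef2c and 18.3% in Mef2d with complete coding sequences. Leading transcripts held 72.6% of Mef2a, 54.0% of Mef2c and 55.7% of Mef2d counts. Leaving out each line in turn gave between -0.18 and 0.49 for Hdac5 minus Mef2c, where line 66 decided the sign, and between 0 and 1 member over 1.5-fold apart. Without a filter 2 members were over 1.5-fold apart, Mef2c and Mef2b, the latter on 2 or 3 counts, against 52.8% of genes. No paired analysis was possible because there is only 1 condition. The 3 lines cannot give a p below 0.25.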

Other observations

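The other histone deacetylase genes were read beside the class IIa members. Hdac2 had 248 ± 18.5 TPM, Hdac1 111 ± 7.35 TPM and Hdac3 85.4 ± 3.96 TPM, so that each of these class I genes stood above Hdac5, the highest class IIa gene. Of the 7 genes of this list, 4 averaged at least 10 TPM and none of these was over 1.5-fold apart between lines, against 9.79% of all genes at that level.

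Splicing factors of muscle and nerve were also read. Of 9, 8 averaged at least 10 TPM, and 3 of these were over 1.5-fold apart, against the same 9.79%. Ptbp1, the repressor of neuronal and muscle exons, led with 374 ± 78.1 TPM, followed by Rbfox2 (270 ± 60.8 TPM) and Mbnl2 (159 ± 19.9 TPM). Rbfox2 had 212 TPM in line 66, 264 TPM in line 67 and 333 TPM in line 72. Rbfox1 had 46.6, 50.01 and 25.7 TPM in the same lines, and Ptbp2 61.3, 101 and 91.8 TPM. Rbfox2 was lowest in line 66 and highest in line 72, as the β share of Mef2a and Mef2d was, whereas Rbfox1 was lowest in line 72. This order of Rbfox2 was found for 3 of the 8 splicing factors averaging at least 1 TPM, against 27% of all genes at that level. Ptbp1 was highest in line 66, with 464, 323 and 336 TPM in lines 66, 67 and 72. No relation to the exon shares was tested over 3 lines. Rbfox3 was at or under 3 counts in every line.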
